A study of Danio rerio with 6 samples.

Results

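The transcripts of ca15b, rgs14a, camk2g1, gra, hook2 and celf1 are germ plasm mRNAs of the zebrafish that do not encode the classical germ cell regulators. They were chosen by gene symbol, with earlier results of these data known, and each symbol matched 1 of the 21051 genes in the table. All 6 reached a mean normalized read count of 10 and were thus among the 13265 genes tested. The data are RNA immunoprecipitation sequencing (RIP-seq) of zebrafish zygotes. The 3 libraries of RNA recovered with the Tudor domain protein Tdrd6a (IP) were set against 3 libraries of input RNA, and the comparison asked which maternal transcripts accompany Tdrd6a. Both groups carry the labelled source of zygotes, although the series' design text speaks of ovary. The labels name no strain, mutant allele, treatment or number of embryos for either group, and a control precipitation with another antibody is not part of this comparison. Whether the replicates are of different clutches is not said, so the spread behind the p-values may be technical.

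Germ plasm is maternal cytoplasm rich in RNA and protein that is handed to the cells that become primordial germ cells. In zebrafish it collects at the distal ends of the first cleavage furrows, and its RNAs are held in granules with Tudor domain proteins. Best known among its mRNAs are those of germ cell regulators such as nanos3, dazl, dnd and vasa. The 6 transcripts described here encode proteins of other kinds: a carbonic anhydrase, a pair of signalling proteins, a microtubule linker, a germ granule protein and an RNA-binding protein.

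The libraries held 4031863 to 22466764 reads in IP and 10481205 to 19804774 in input, and IP replicate 2 was the shallowest. Over all genes, limma called 591 genes higher (4.46% of those tested) and 247 lower (1.86%) in IP at an adjusted p under 0.05, 838 (6.32%) in all. With replicate number as a block, the counts were 925 higher and 467 lower. Under scaling by library size only, 474 genes were higher and 383 lower, and the median log2 fold change of all genes was -0.18, against -0.01 with the deposited scaling. Leaving out 1 library gave between 170 (without input replicate 1) and 1185 (without IP replicate 2) higher genes, and 271, 239 and 188 without IP replicate 1, input replicate 2 and input replicate 3. The lower genes numbered 547 without IP replicate 2 and 60, 173, 23, 34 and 10 without IP replicates 1 and 3 and input replicates 1, 2 and 3. Egg and oocyte markers were present, with 8 of 9 matched genes at a mean of at least 10. Their sum was 56123 to 216992 normalized counts in IP, against 8589 to 11477 in input, and most of the IP sum came from slbp2, the 1 egg marker called higher (53412 to 214496 in IP, against 6353 to 7856 in input). The summed markers of follicle cells (4 matched, 2 listed at 0) and of sperm (3 matched) stayed at or under 74.8 normalized counts in every library.

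All 6 transcripts were higher in IP. The lowest IP library lay above the highest input library for each of them, a separation found in 14.6% of all genes tested, while 12.9% were separated the other way. Fold changes ran from 13.5-fold for camk2g1 to 84.6-fold for ca15b. The median log2 fold change was 4.99 for the 6, against -0.01 for all genes tested. That all-gene median depends on the scaling and was -0.18 with library size only. All 6 were among the 109 genes (0.822% of those tested) that were called and at least 8-fold higher, and all but camk2g1 were among the 38 (0.286%) that were called and at least 16-fold higher. Fold changes are on the log2(normalized count + 4) scale, where the added 4 makes the change of a low gene look smaller. In bulk libraries, a change in how many embryos or granules contributed a transcript and a change in its amount in each cannot be told apart.

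**Figure D1:**
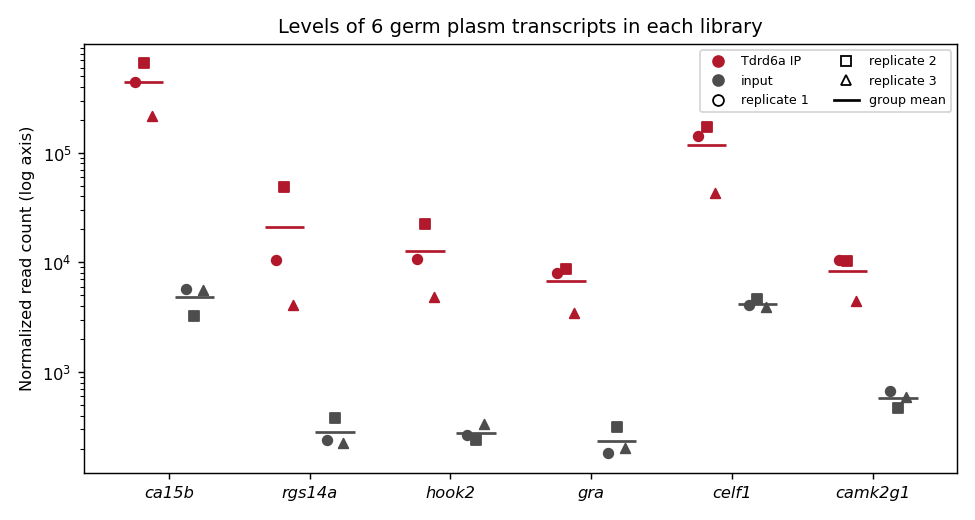
Normalized read counts (log axis) of the 6 transcripts in each of the 3 Tdrd6a IP libraries (red, left) and the 3 input libraries (grey, right), with bars at the group means and marker shapes for the replicate numbers. For every transcript the IP points lie above the input points, from 4412 against 672.5 at the nearest for camk2g1 to 214665 against 5670 for ca15b.

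As a share of all recovered reads, the 6 transcripts together took 4.03%, 6.03% and 2.35% in IP replicates 1, 2 and 3, against 0.0942%, 0.0783% and 0.0805% in input replicates 1, 2 and 3. The exact 95% binomial interval of the widest of these shares, 6.03%, was 6.01 to 6.05%, and it covers counting error only. The means were 4.13 ± 1.84% in IP and 0.0844 ± 0.00860% in input (SD, n = 3 each; exact permutation test, two-sided, p = 0.1; no smaller p is possible with 3 libraries in each group). Reads of ca15b made up 71.1%, 71.5% and 78.1% of the reads of the 6 in IP, against 51.2%, 35.2% and 51.5% in input. These shares are of reads and are not corrected for transcript length.

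**Figure D2:**
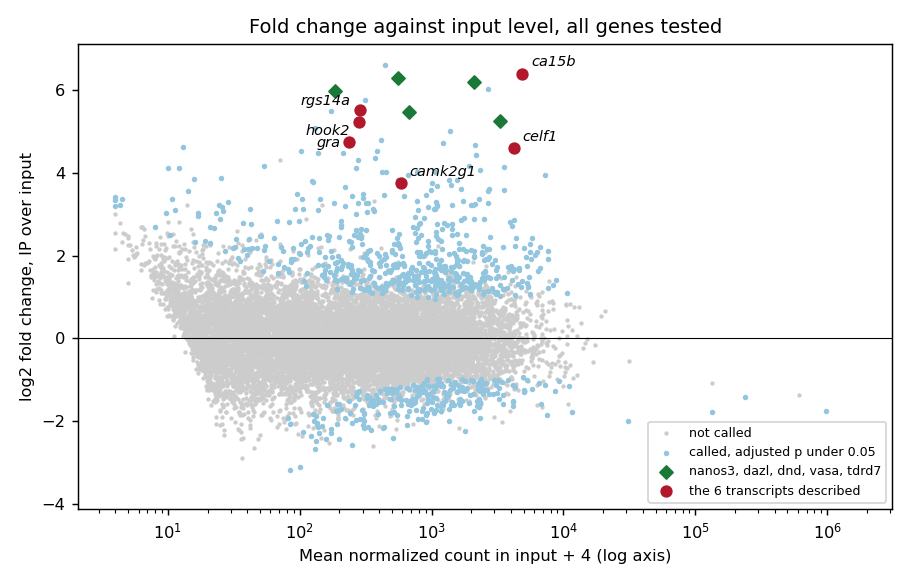
Log2 fold change of IP over input against the mean normalized count in input plus 4 (log axis) for the 13265 genes tested, with called genes in blue, the 6 transcripts in red and nanos3, dazl, dnd, vasa and tdrd7 in green. The 6 transcripts stand at 3.76 to 6.40, at input means from 233 (gra) to 4842 (ca15b) normalized counts.

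The enzyme of the group is encoded by ca15b (ENSDARG00000040510), a carbonic anhydrase, which interconverts carbon dioxide and bicarbonate. Its level was 446884, 653413 and 214665 normalized counts in IP replicates 1, 2 and 3, against 5670, 3252 and 5603 in input replicates 1, 2 and 3. The groups lay far apart, and the 3 IP libraries differed from each other by up to 3.04-fold. The log2 fold change was 6.40 ± 0.43 (SE, n = 3 each; limma adjusted p = 0.000103), an 84.6-fold difference with a 95% interval of 43.7 to 164. It ranked 2nd among all genes tested. It had 173790 or more reads in each IP library and 4424 or more in each input library, the most of the 6 in all libraries but input replicate 2, where celf1 had 6237 reads and ca15b 4424.

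Most other carbonic anhydrase genes were low or at 0 in these libraries. Of 12 matched, 4 were listed at 0 in all libraries, among them ca15a, which lies close to ca15b in the RefSeq annotation (assembly GRCz12tu), and 4 were tested. Of these 4, limma called 1 higher, 0 lower and 3 neither way, beside 4.46% higher and 1.86% lower of all genes tested. At an unadjusted p under 0.05 and by edgeR, DESeq2 or voom, 1 of the 4 was higher and 0 were lower. Among all 13265 genes tested, 2814 had an unadjusted p under 0.05 in either direction. Over all of these genes, edgeR, DESeq2 and voom called 588, 1061 and 619 higher and 253, 571 and 328 lower. The median log2 fold change of the 4 was -0.10. The higher one was ca7, a cytosolic carbonic anhydrase, at 3629, 5557 and 2800.2 normalized counts in IP, against 723, 797 and 770.5 in input. It stood at 2.32 ± 0.29 (limma adjusted p = 0.00186), a 5.01-fold difference. The log2 ratio of ca15b to ca7 was 6.94, 6.88 and 6.26 in IP, against 2.96, 2.02 and 2.86 in input. The groups of ratios did not overlap, and their means differed by 4.08 (two-sided exact permutation p = 0.1). The remaining tested members, ca8 (-0.44), ca10a (-0.71) and ca16b (0.23), gave limma adjusted p of 0.834, 0.427 and 0.811.

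Both signalling proteins act downstream of receptors or calcium. The first, rgs14a (ENSDARG00000021521), encodes a regulator of G protein signalling; in mammals RGS14 speeds GTP hydrolysis by G alpha i and o subunits and binds G alpha i through a GoLoco motif. Its level was 10409, 48324.5 and 4074 normalized counts in IP replicates 1, 2 and 3, against 238, 381 and 226 in input. All IP libraries were above all input libraries, but IP replicate 2 stood 11.9-fold above IP replicate 3, the widest spread within IP among the 6 transcripts. That library rests on 12853 reads of rgs14a (0.319% of its reads, exact 95% binomial interval 0.313 to 0.324%). The interval takes reads as independent, which reads without molecular identifiers are not. It does not give the number of RNA molecules behind them. The log2 fold change was 5.52 ± 0.80 (limma adjusted p = 0.00926), a 45.8-fold difference whose 95% interval ran from 12.7 to 165. Without IP replicate 2 it was 4.55, without IP replicate 3 it was 6.34, and without input replicate 3 the call was lost (5.38, limma adjusted p = 0.0532, against at most 0.0399 with any other single library left out and at most 0.0104 under the other settings tried).

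The 20 other tested genes of RGS proteins, G alpha i subunits and their partners had a median log2 fold change of 0.04. Of these 20, limma called 0 after adjustment over all genes, beside 6.32% of all genes tested. At an unadjusted p under 0.05, 2 were higher and 1 lower, beside 2814 of all 13265 genes tested in either direction. On recovered reads edgeR and limma voom called 0 and DESeq2 called 1, on the lower side. Over all genes tested, DESeq2 called 1061 higher and 571 lower. Their estimates ran from -1.22 (rgs6) to 1.48 (rgs2, limma adjusted p = 0.108). The 5 tested G alpha i genes, whose products are the kind of subunit that RGS14 binds in mammals, had log2 fold changes of 0.74 (gnaia), 0.70 (gnai1), 0.18 (gnai2b), 0.10 (gnai2a) and -0.59 (gnai3), none of them called. For gnaia every IP library was above every input library, at 2216, 2372 and 1824 normalized counts in IP, against 1615, 1223 and 1029 in input. The same held for rgs2 and ric8b of this list and for 14.6% of all genes tested. The gene rgs17 was separated the other way, as were 12.9% of all genes tested. The RGS gene with the highest mean count, rgs12a, which belongs with RGS14 to the R12 subfamily, had 650.5, 752 and 1094 normalized counts in IP, against 597, 1043 and 893 in input. These ranges overlap, and its log2 fold change was -0.02 ± 0.31 (95% interval -0.71 to 0.67, limma adjusted p = 0.985). The log2 ratio of rgs14a to rgs12a was 3.99, 6.0 and 1.89 in IP, against -1.32, -1.44 and -1.96 in input. Its group means differed by 5.53, without overlap (two-sided exact permutation p = 0.1), and by 4.52 without IP replicate 2 and 6.57 without IP replicate 3.

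The second signalling transcript, camk2g1 (ENSDARG00000071395), encodes a gamma subunit of calcium/calmodulin-dependent protein kinase II (CaMKII), a kinase that decodes calcium signals. Its level was 10540.0, 10196.5 and 4412 normalized counts in IP, against 672.5, 468 and 594 in input. The groups were separate, IP replicate 3 was the lowest of its group, and the other two IP libraries were nearly level. The log2 fold change was 3.76 ± 0.35 (limma adjusted p = 0.00031), a 13.5-fold difference (95% interval 7.88 to 23.3), the smallest of the 6. It ranked 49th of all genes tested.

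The 11 other tested genes of calmodulin-dependent kinases and calmodulins had a median log2 fold change of -0.51. Of these 11, limma called 0 higher, 1 lower and 10 neither way, beside 4.46% higher and 1.86% lower of all genes tested. An unadjusted p under 0.05 was reached by 2814 of the 13265 genes tested, in either direction. In this list there were 0 higher and 3 lower. Over all genes, edgeR, DESeq2 and voom called 253, 571 and 328 lower, and in this list each called 0 higher and 1 lower. The lower one was 1 of several genes that the file names calm2a, for the calcium sensor calmodulin. This copy, ENSDARG00000015050, had 41.0, 52.6 and 61.5 normalized counts in IP, against 159, 222 and 168 in input (-1.75 ± 0.40, limma adjusted p = 0.0268). The call was lost without IP replicate 1 or without any input library (limma adjusted p from 0.0911 to 0.118) and with no filter beyond 1 read (0.0501). Calmodulin genes are near-identical copies, and how the authors' counting split reads between them is not given in the sources used here. The CaMKII gene with the next highest level, camk2b1, had 74.4, 218 and 124 normalized counts in IP, against 86.3, 196 and 102 in input. Its groups overlap, with a log2 fold change of 0.07 ± 0.49 (95% interval -1.0 to 1.15, limma adjusted p = 0.957). The log2 ratio of camk2g1 to camk2b1 was 7.07, 5.52 and 5.11 in IP, against 2.91, 1.24 and 2.49 in input (difference of means 3.69, two-sided exact permutation p = 0.1; 3.10 without IP replicate 1).

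The microtubule linker is encoded by hook2 (ENSDARG00000039309). Hook proteins join cargo to microtubules and activate the minus-end motor dynein, and human HOOK2 is found at the centrosome. The transcript was at 10728, 22175 and 4851 normalized counts in IP, against 263, 239.6 and 335.5 in input. Input libraries lay within 1.40-fold of each other, while IP libraries spread over 4.57-fold, with IP replicate 2 the highest. The log2 fold change was 5.22 ± 0.48 (limma adjusted p = 0.00049), a 37.4-fold difference with a 95% interval of 17.8 to 78.5.

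Of 17 other tested genes of Hook proteins, their FHIP partners and dynein adaptors, limma called 1 higher, 0 lower and 16 neither way. The median of the list's log2 fold changes was 0.12. Over all genes tested, limma called 4.46% higher and 1.86% lower. At an unadjusted p under 0.05 the list held 2 higher and 1 lower, beside 2814 of all 13265 genes in either direction. In this list edgeR, DESeq2 and voom called 1, 2 and 1 higher and 0 lower. The higher one, ENSDARG00000053713, is named ccdc88c in the table of gene identifiers, and the human protein of that name, Daple, has a Hook-like domain and binds G alpha i. It had 49864, 46896 and 36676 normalized counts in IP, against 1247.5, 2916 and 2330.4 in input. The IP libraries were close to each other and far above input, at a log2 fold change of 4.43 ± 0.34 (limma adjusted p = 0.000111), and the gene ranked 25th. In contrast, hook1 had 86.9, 41.4 and 228 normalized counts in IP, against 134.5, 139.7 and 105 in input. These ranges overlap (-0.39 ± 0.56, 95% interval -1.62 to 0.83, limma adjusted p = 0.749). The log2 ratio of hook2 to hook1 was 6.88, 8.93 and 4.39 in IP, against 0.95, 0.76 and 1.64 in input (difference of means 5.62, two-sided exact permutation p = 0.1; 4.52 without IP replicate 2 and 6.79 without IP replicate 3). The ratio of 8.93 rests on few reads of hook1 in IP replicate 2, where 1 read is worth 3.76 normalized counts. The gene of the Hook partner FTS, aktip, was at 0.89 (limma adjusted p = 0.128).

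The germ granule protein is Granulito, encoded by gra (ENSDARG00000078754). Its transcript was at 8018, 8768 and 3430.0 normalized counts in IP, against 180.5, 317 and 202 in input. The groups did not overlap, and IP replicate 3 was again the lowest of its group. It was 27.1-fold higher in IP (95% interval 15 to 48.8), a log2 fold change of 4.76 ± 0.38 (limma adjusted p = 0.000181). The lowest count behind these values was 161 reads, in input replicate 1, or 0.00154% of that library (exact 95% binomial interval 0.00131 to 0.00179%). No family list was made for gra.

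The RNA-binding protein is encoded by celf1 (ENSDARG00000005315). CELF1 proteins bind U- and G-rich elements in 3′ untranslated regions, and the Xenopus protein, EDEN-BP, promotes deadenylation of maternal mRNAs. The transcript was at 142166, 171254.5 and 43299 normalized counts in IP, against 4044, 4585 and 3912 in input. The input libraries were the most even of the 6 transcripts, within 1.17-fold, and the IP libraries differed by up to 3.96-fold. The log2 fold change was 4.61 ± 0.47 (limma adjusted p = 0.000629), a 24.4-fold difference (95% interval 11.8 to 50.3). Without IP replicate 3 it was 5.22. The span of nudt19 overlaps that of celf1 in the RefSeq annotation, and with strand use unknown their reads cannot be told apart. The values given to nudt19, at most 147 normalized counts in any library, come from the same counting and set no bound on shared reads.

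Of 8 other tested genes of CELF, MBNL and ELAVL RNA-binding proteins, limma called 1 higher, 0 lower and 7 neither way. The median of the list's log2 fold changes was 0.13. Limma calls over all genes tested were 4.46% higher and 1.86% lower. At an unadjusted p under 0.05 the list held 2 higher and 0 lower, beside 2814 of all 13265 genes in either direction. In this list edgeR, DESeq2 and voom each called 1 higher and 0 lower. The higher one was celf2, at 316, 162 and 315 normalized counts in IP, against 85.2, 91.2 and 55.9 in input (1.69 ± 0.41, limma adjusted p = 0.0358). Its call was lost under library size scaling (0.0747), with no filter beyond 1 read (0.0721) and without any single library other than IP replicate 2 (0.0847 to 0.153), all as limma adjusted p. The CELF gene with the next highest level, celf3a, had 268, 30.1 and 222 normalized counts in IP, against 268, 420.5 and 359 in input. IP replicate 2 was far under the other libraries (-1.44 ± 0.72, 95% interval -3.08 to 0.20, limma adjusted p = 0.298). Its 30.1 normalized counts of celf3a rest on few reads, at 3.76 normalized counts to 1 read, as does the ratio to celf1 there. Without IP replicate 2 the log2 fold change of celf3a was -0.49. The log2 ratio of celf1 to celf3a was 9.03, 12.3 and 7.58 in IP, against 3.90, 3.43 and 3.43 in input (difference of means 6.05, two-sided exact permutation p = 0.1; 4.72 without IP replicate 2 and 7.08 without IP replicate 3). In all 5 such pairs the ratios of IP and input did not overlap, and the p-values adjusted over the 5 pairs were 0.1, which 3 libraries against 3 cannot go below. Each of the 5 transcripts was itself separated and far higher in IP, so separation from a less changed gene largely follows from that. The pairs are thus not separate evidence.

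**Figure D3:**
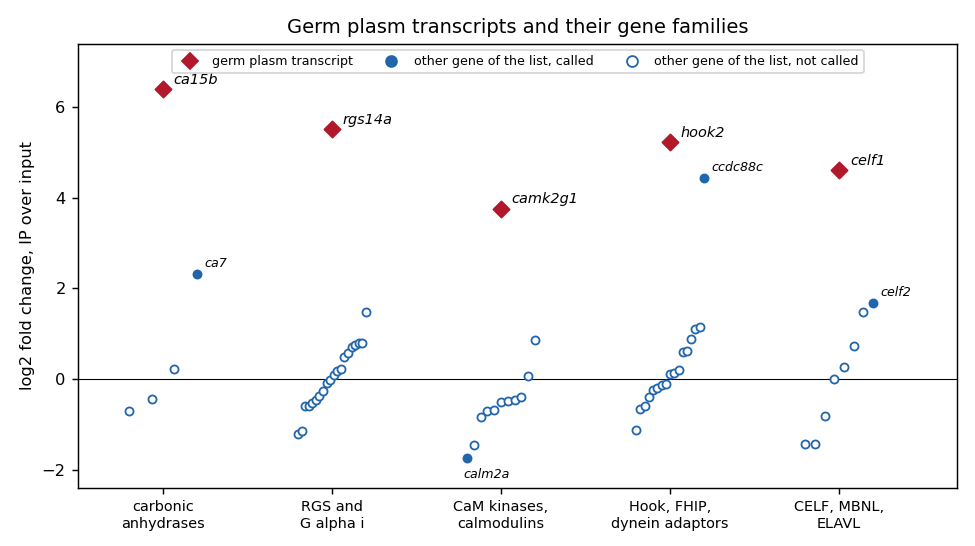
Log2 fold change of IP over input for 5 of the 6 transcripts (red diamonds) and for the other tested genes of each one's list (blue, filled where called at a limma adjusted p under 0.05). The germ plasm transcript stands highest in each list, and the called genes beside them are ca7 (2.32), ccdc88c (4.43), celf2 (1.69) and, on the lower side, a calm2a copy (-1.75).

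The order of the log2 fold changes was ca15b (6.40), rgs14a (5.52), hook2 (5.22), gra (4.76), celf1 (4.61) and camk2g1 (3.76). For 4 of the 5 neighbouring pairs in that order, the log2 ratio of the pair overlapped between IP and input. The log2 ratio of ca15b to rgs14a was 0.89 higher in IP than in input, with overlapping groups (two-sided exact permutation p = 0.3). The corresponding differences were 0.29 for rgs14a and hook2, 0.47 for hook2 and gra and 0.15 for gra and celf1, each with an exact permutation p of 0.6. Within replicate numbers, a comparison added after the data were seen, the difference of ca15b and rgs14a was 0.87, 0.68 and 1.11 in replicates 1, 2 and 3, and that of rgs14a and hook2 was 0.10, 0.46 and 0.31, so both had one sign in all 3 numbers although their groups overlapped. Those of hook2 and gra (-0.12, 1.74 and -0.22) and of gra and celf1 (0.31, -0.45 and 0.59) changed sign between numbers. The last step was separated: the log2 ratio of celf1 to camk2g1 was 0.85 higher in IP (exact permutation p = 0.1). Ratios of ca15b, rgs14a, hook2 and gra to camk2g1 were also separated, as were those of ca15b to hook2, gra and celf1. Adjusted over the 15 pairs, the p-values of the separated ones were 0.188, so no pair passed a threshold of 0.05. Within replicate numbers, 12 of the 15 pairs had one sign in all 3 numbers, each with a two-sided exact sign-flip p of 0.25, and 3 numbers cannot give a smaller one. The pairs share the same 6 libraries.

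The size of the enrichment depended on the IP library. Over the input mean, the median of the 6 transcripts was 35.7-fold for IP replicate 1, 60.2-fold for IP replicate 2 and 14.6-fold for IP replicate 3. IP replicate 3 was the lowest IP library for all 6, which was so for 33.2% of the genes tested and for 65.7% of the genes called higher. IP replicate 2 was the highest for 5 of the 6, camk2g1 being the exception, which was so for 38.5% of the genes tested and 30.1% of those called higher. The members did not scale together: rgs14a stood at 37.0-fold, 172-fold and 14.5-fold over the input mean in IP replicates 1, 2 and 3, against 18.2-fold, 17.6-fold and 7.63-fold for camk2g1. Set against the input of the same replicate number, rgs14a was 43.8-fold, 127-fold and 18.0-fold higher and camk2g1 15.7-fold, 21.8-fold and 7.43-fold higher. The coefficient of variation within IP ran from 41.1% (camk2g1) to 114% (rgs14a), and within input from 8.53% (celf1) to 31.5% (gra). Among 4467 genes with a mean of at least 500 normalized counts, its median was 28.3% in IP and 15.2% in input. IP replicate 2 was also the shallowest library, and the part of depth in these differences was not tested.

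**Figure D4:**
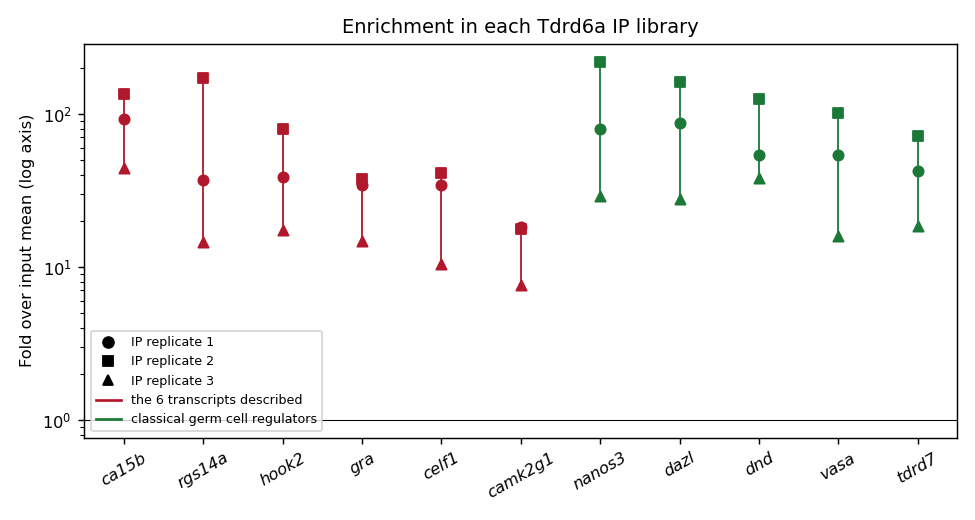
Fold of each Tdrd6a IP library over the mean of the 3 input libraries (log axis) for the 6 transcripts (red) and 5 classical germ cell regulators (green), with marker shapes for IP replicates 1, 2 and 3 and a line from the lowest to the highest. IP replicate 3 (triangles) is the lowest throughout, and the widest line is that of rgs14a, from 14.5-fold to 172-fold.

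**Figure D5:**
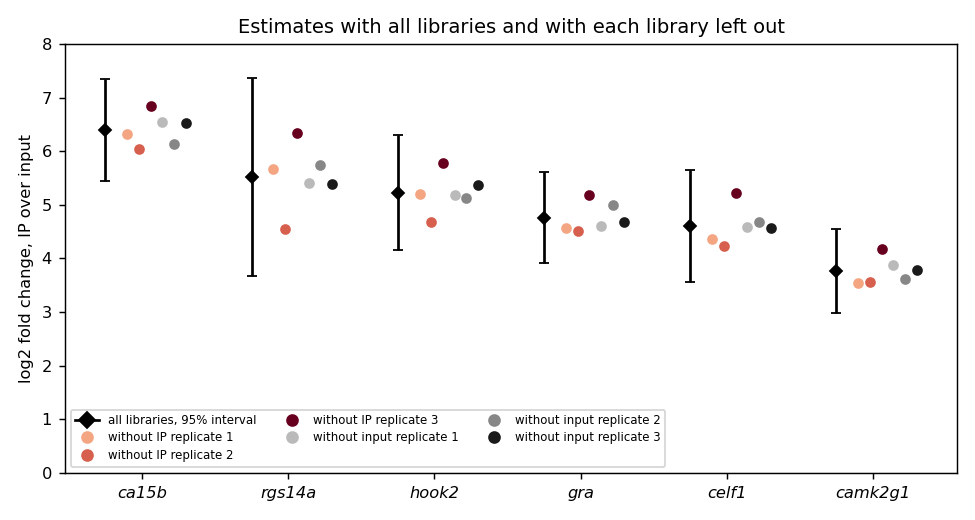
Log2 fold change of IP over input for the 6 transcripts with all libraries (black diamonds, bars giving the 95% interval of the limma fit) and with each library left out in turn (dots). Estimates rise without IP replicate 3 for all 6, most for rgs14a (6.34 without it and 5.52 with all libraries), and camk2g1 stays between 3.54 and 4.17.

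The classical regulators were enriched in the same libraries. The values of nanos3, dazl, dnd, vasa and tdrd7 lay between 5.26 and 6.31 on the log2 scale, with a median of 5.97, beside 3.76 to 6.40 and a median of 4.99 for the 6 transcripts described. With 1 library left out, nanos3 ranged from 5.57 to 7.03, dazl from 5.62 to 6.90, vasa from 4.88 to 6.22, dnd from 5.49 to 6.34 and tdrd7 from 4.81 to 5.78, each lowest without IP replicate 2 and highest without IP replicate 3. In IP replicates 1, 2 and 3 the median folds over the input mean were 35.7, 60.2 and 14.6 for the 6 transcripts and 53.7, 124 and 27.6 for the regulators. In the limma fit with all libraries the ranges overlap, since ca15b exceeded all 5 regulators. That order depended on the setting. On recovered reads, edgeR placed nanos3 (6.72) and dazl (6.49) above ca15b (6.46), while voom kept ca15b (6.40) above nanos3 (6.34). Over the input mean, ca15b was the highest in IP replicates 1 and 3. In IP replicate 2 it was at 135-fold, under nanos3 (218-fold) and dazl (162-fold). The difference between the 6 transcripts and the regulators was not tested.

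The profiles most like those of the 6 transcripts were found by the Euclidean distance of log2(normalized count + 4), centred on the input mean, over the 6 libraries and among 9146 genes with a symbol and a mean of at least 50. For hook2 the nearest was tdrd7 at a distance of 0.271, followed by vasa (0.907) and mob1bb (1.02), the gene of a co-activator of the Hippo pathway kinases. The nearest to ca15b were dazl (1.13), nanos3 (1.14) and si:ch211-241j12.3 (1.21), and to rgs14a vasa (1.24), si:ch211-241j12.3 (1.32) and hook2 (1.46). The transcripts of gra and celf1 were near each other (0.697), with mob1bb at 0.777 from gra and 0.639 from celf1 and zgc:158376 the third for both (1.17 and 0.795). The neighbours of camk2g1 were other genes: mpzl1l (0.608), si:ch211-150o23.3 (0.609) and b4galt6 (0.619), which encodes a galactosyltransferase of glycosphingolipid synthesis. Their log2 fold changes were 3.48, 3.81 and 3.62 (limma adjusted p = 0.000747, 0.00202 and 0.000322). As profiles were centred on the input mean, the distance carries the size of the fold change, and genes of like fold change tend to be near. In rank of log2 fold change the 3 neighbours of camk2g1 were 61st, 47th and 54th, beside 49th for camk2g1. A distance over 6 libraries is a description of these libraries alone.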

How the data were processed

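For each gene and library the authors deposited a signal in normalized read counts with 1 decimal. Per the submitters' processing notes, TopHat and DESeq were used with the Zv9 build. How reads were counted, on which annotation and with what strand setting is not given in the sources used here. Per the labels' protocols, Trizol RNA went into NuGEN Ovation libraries that were read as 50 bp single ends. The low values proved to be multiples of 1 constant per library, 0.682 to 3.76 normalized counts, which is the value of 1 read. Dividing by it recovered whole reads, with 99.98% or more of each library's values above 0 within 0.06 normalized counts of a whole multiple. Totals per library were 22466764, 4031863 and 9701595 reads for IP replicates 1, 2 and 3 and 10481205, 16048024 and 19804774 for input replicates 1, 2 and 3. Reads without molecular identifiers are not independent molecules, so intervals cover counting error only.

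Sample titles gave the group and the replicate number. The whole table was fitted with limma 3.58.1 (abundance trend, robust, group only, two-sided) in R 4.3.3 on log2(normalized count + 4), over 13265 genes with a mean of at least 10, with Benjamini-Hochberg adjustment over all of them. The fit was also run on simulated reads with known changes, drawn independently for each library and without an effect of replicate number. That run checks the code of the fit and does not show how it behaves on these libraries. The members, gene lists and tests were chosen with earlier results of these data known. The genes named are the 6 members, for 5 of them (no protein sequences being used) the gene of the same name stem with the highest mean count, the called genes of each list and the 3 nearest profiles; other list genes named were chosen after their values were seen. Of 21051 identifiers, 16425 were found in the table of gene identifiers and symbols, which named genes without a usable symbol, and RefSeq (GRCz12tu) served for synonyms and gene order only. Ratios of pairs and shares of reads were compared by exact permutation tests with scipy 1.17.1 under Python 3.11.15.

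Across genes, deviations from the group mean correlated between IP and input of the same number (0.294, 0.305 and 0.301), so the labels' numbers were taken to pair the libraries, and a replicate block was run as an alternative. The main fit and the exact permutation tests of ratios and shares did not use this pairing. Libraries of 1 group differed by far more than sampling noise, with a chi-square per degree of freedom of at least 44.4, so all 6 were counted. The count test, edgeR 4.0.16 on recovered reads, called 588 genes higher and 253 lower. Other alternatives were DESeq2 1.42.0 and voom on recovered reads, other scalings, filters and pseudocounts, and leaving out each library. Of the marker lists, blood matched 0 of 4 genes, and the 5 matched muscle and zygotic genes summed to at most 34.9 normalized counts in any library.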

Additional observations from a re-analysis of the deposited data

How the results depend on the processing

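Under 17 alternative settings, 101 of 102 calls of the 6 transcripts as higher were kept, and the exception was rgs14a without input replicate 3. With 1 library left out, the log2 fold changes ranged from 6.04 to 6.85 for ca15b, 4.55 to 6.34 for rgs14a, 4.68 to 5.78 for hook2, 4.51 to 5.19 for gra, 4.23 to 5.22 for celf1 and 3.54 to 4.17 for camk2g1. Over all genes, DESeq2 called 1061 higher and 571 lower, and the replicate block gave 925 and 467. The block changed no call of the 6 transcripts or of the called genes of their lists. The lower genes numbered 449 with edgeR and the block, 383 with library size only and 101 with no filter beyond 1 read. Counts with 1 library left out ran from 170 to 1185 higher and from 10 to 547 lower. The cause of these shifts was not tested. Between neighbouring members, the difference of rgs14a and hook2 ranged from -0.13 to 0.63 and that of gra and celf1 from -0.036 to 0.32 with 1 library left out, settings that were chosen after seeing the data. Of the 4 uncalled genes set beside a transcript, celf3a kept its sign under every setting run and the others changed it: rgs12a ranged from -0.25 to 0.15, hook1 from -1.01 to 0.17 and camk2b1 from -0.31 to 0.44 with 1 library left out, and camk2b1 was at -0.25 with voom and -0.11 with library size only. Depth limits the shallowest library, IP replicate 2, where 1 read is worth 3.76 normalized counts, and low input counts such as the 161 reads of gra in input replicate 1.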

Other observations

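The order of genes next to the 6 on the chromosome was taken from the RefSeq annotation of another assembly (GRCz12tu), and this look-up was chosen after the data were seen. Of 36 protein-coding neighbours, 3 on each side of each gene, 26 were matched in the table and 14 were tested. Beside 6.32% of all genes tested, limma called 1 of these 14 at an adjusted p under 0.05. It was zgc:92313, the second gene before ca15b, with 5610, 3557 and 3505 normalized counts in IP, against 1720.5, 1708 and 1533 in input (log2 fold change 1.32 ± 0.27, limma adjusted p = 0.019). That call was lost without IP replicate 1 (limma adjusted p = 0.0517) or any 1 input library (0.0882 to 0.108). The gene span of nudt19 overlaps that of celf1 in that annotation, and it had 41.7, 147 and 76.0 normalized counts in IP, against 20.2, 86.0 and 75.7 in input (log2 fold change 0.56, limma adjusted p = 0.681). The neighbour of camk2g1, sec24c, which encodes a COPII coat protein, was at 18918, 11719 and 10267 normalized counts in IP, against 5795, 6915 and 6707 in input (log2 fold change 1.03, limma adjusted p = 0.0697). Its groups did not overlap, with IP above input as for 14.6% of all genes tested, but its adjusted p missed the threshold. Among the tested neighbours, slc7a9 (-2.66), chmp6b (-0.89) and rbm12bb (-0.73) were separated the other way, as were 12.9% of all genes tested. None of them was called (limma adjusted p of 0.101, 0.18 and 0.316).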
